A study of Mus musculus with 15 samples.

Results

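The opening hours of activation were compared with the starting state of mouse CD4 T cells on microRNA arrays. All 6 arrays of the naive, 6 h and 12 h groups were used, chosen from the 15 arrays of the series by their treatment labels alone. Each group had 2 arrays, and the 4 activated arrays were pooled against the 2 naive arrays. The cells came from spleen and lymph nodes of C57/B6 mice aged 6 to 8 weeks and were taken with CD4-coated magnetic beads. Naive cells had no treatment, and activated cells were held for 6 h or 12 h on plates coated with antibodies to CD3, which signals for the T cell receptor, and to CD28, a costimulatory receptor. The labels give no further sorting of the naive cells, so other CD4+ cells taken by the beads may be in every group. Whether both arrays of a group stem from different animals or cultures is not stated in the labels. The p-values therefore cover only the spread among these arrays, and that spread may be technical.

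MicroRNAs are short RNAs that guide Argonaute proteins to messenger RNAs and repress them. Naive T cells are small and quiescent, and engagement of the T cell receptor with CD28 starts growth, cytokine production and later division, during which the microRNA content is known to be remodelled. Level here reflects synthesis and decay together, since an array reads only the amount present at the time of harvest. No table used here pairs the probe IDs with microRNA names or sequences, so probes are given by ID, no sequence is shown, and cell type markers could not be checked.

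The arrays lay on 2 slides, each with 1 naive, 1 6 h and 1 12 h array. On 5 of the 6 arrays 849 to 887 of the 2500 probes were above background, and the 12 h array of slide 1 had 714. Median signal before any scaling was also lowest on that array, at 6.91 log2 against 7.94 to 8.70 on the others. Levels below are log2 values of the authors' deposited table, in which all arrays share nearly the same distribution, so a shift of all probes together cannot be seen in them. A probe was tested when it was above background on both arrays of the naive, 6 h or 12 h group, which held for 662 of the 2191 probes of the table. Differences were tested with limma over 14 arrays of the series, leaving out the first 42 h array, and probes passed at a Benjamini-Hochberg adjusted p under 0.05.

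UCSF033_000798 rose in the first 12 h of activation and was the only one of the 662 tested probes to pass in the fit without slide (0.151% of those tested, 1 higher and 0 lower, with 75 at an unadjusted p under 0.05). Its level was 8.75 and 8.09 on the naive arrays of slide 1 and slide 2, 10.76 and 10.14 at 6 h, and 10.66 and 11.68 at 12 h. All 4 activated arrays lay above both naive arrays. The pooled difference was 2.39 log2 (SE 0.33, limma adjusted p = 0.0434, n = 4 against 2), a 5.23-fold rise on the scale of the table, with 1.96 on slide 1 and 2.82 on slide 2. Its rank among the 2191 probes went from 148 and 175 on the naive arrays to 75 and 97 at 6 h and 48 and 79 at 12 h, where 1 is the highest. The call was lost when any array of the naive, 6 h, 24 h or 65 h groups was left out (adjusted p 0.0502 to 0.365), with only the 6 compared arrays in the fit (0.126) and with unscaled scanner intensities (0.0913). The difference stayed between 2.06 and 2.72 when 1 array was left out. The count of 1 became 3 without the 12 h array of slide 1, 2 without that of slide 2 and 19 without either restimulated array.

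With the slide as a block, 20 probes passed (3.02%), of which 12 rose (1.81%) and 8 fell (1.21%). The 12 rose by 0.86 to 2.39 log2 (median 1.30), and the 8 fell by a median of 0.73 (from -1.23 to -0.64), against a median of -0.07 over all 662 probes. Each of the 20 lay on one side of the naive array on both slides, which the selection nearly fixes. Of the 12 that rose, 11 were above background on both naive arrays. The remaining probe was tested only through the activated groups, in which it was higher, so its part of the count is no support for a rise. Of the 8 that fell, 5 were not above background on either 12 h array and were tested through groups in which they were higher. Their part of the count is no support for a fall, and the medians over the 8 rest largely on values at background. The 12 that rose had a median level of 6.12 and 6.11 on the naive arrays, 7.34 and 7.83 at 6 h, and 7.63 and 7.97 at 12 h, on slide 1 and slide 2 in turn. The 8 that fell had 5.37 and 5.52, 4.69 and 4.92, and 4.64 and 4.66 in the same order. Leaving out single arrays changed this count. It was 0 without either naive array (51 and 50 unadjusted) or without the 6 h array of slide 2 (87 unadjusted). It was 2 without the 6 h array of slide 1, 6 without the 12 h array of slide 2, 16 without the 12 h array of slide 1, 3 without any one of the 24 h or 65 h arrays, and 27 without either restimulated array. With only the 6 arrays in the fit it was 0 (132 unadjusted).

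Ranges that did not overlap were more frequent than calls. All 4 activated arrays lay above both naive arrays for 83 of the 662 probes (12.5%) and below both for 100 (15.1%), beside 3.02% called. All 12 risen probes were among the 83 and all 8 that fell among the 100, which their selection on the same arrays nearly fixes. The pooled difference was over 1 log2 upward at 26 tested probes and downward at 4.

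**Figure D1:**
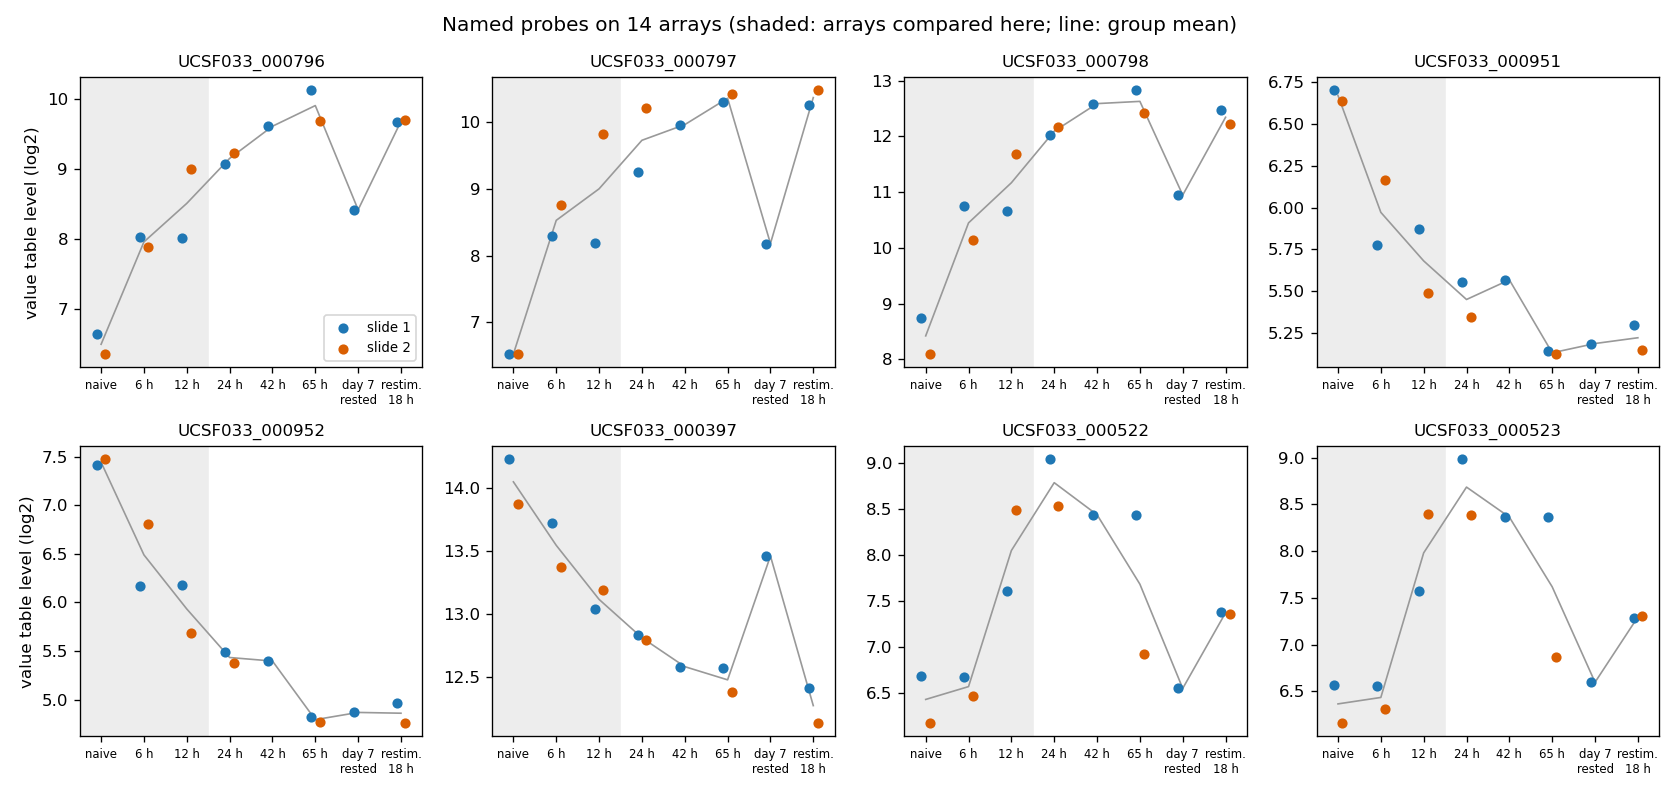
Level in the deposited table (log2, vertical axis) of 8 probes on 14 arrays, by group along the horizontal axis; blue points are slide 1, orange points slide 2, the line joins group means and the shaded part holds the 6 arrays compared. UCSF033_000796 to UCSF033_000798 are above both naive arrays on all 4 arrays at 6 h and 12 h, UCSF033_000951, UCSF033_000952 and UCSF033_000397 are below, and UCSF033_000522 and UCSF033_000523 are near naive at 6 h and above at 12 h.

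Probes with the IDs just before UCSF033_000798 were also higher in activated cells. UCSF033_000797, named after its values were seen, was at 6.53 on both naive arrays, 8.29 and 8.76 at 6 h, and 8.19 and 9.81 at 12 h. Its pooled difference was 2.23, at 1.71 on slide 1 and 2.75 on slide 2. It missed the threshold without the block (SE 0.43, limma adjusted p = 0.0521) and passed with it (SE 0.33, adjusted p = 0.0259). UCSF033_000796 was at 6.64 and 6.36 in naive cells, 8.03 and 7.89 at 6 h, and 8.02 and 9.00 at 12 h. Both probes were about as high at 12 h as at 6 h on slide 1 and higher at 12 h on slide 2. Of the 12 risen probes 7, and of the 8 that fell 4, had a probe with the adjoining ID called in the same direction. The share of all tested probes that adjoin a called probe was not counted, so these counts are a description only.

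Neighbouring IDs resembled each other across the whole list. Over the 358 pairs of tested probes with consecutive IDs the pooled differences correlated at r = 0.534, and at 0.316 for IDs 2 apart (318 pairs), 0.192 for 10 apart and -0.132 for 50 apart. These values come from the same arrays and so share their noise. With the difference of one probe taken from slide 1 and that of its neighbour from slide 2, which have no array in common, r was 0.232 for consecutive IDs, 0.106 for 2 apart, 0.0439 for 5 apart, 0.11 for 10 apart and -0.162 for 50 apart. What consecutive IDs have in common was left unstated by the labels and files.

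UCSF033_000952 and UCSF033_000951 fell most among the probes called with the slide as a block. Their values were known when both were named. UCSF033_000952 was at 7.41 and 7.47 in naive cells, 6.17 and 6.81 at 6 h, and 6.18 and 5.68 at 12 h. The naive arrays differed by little and every activated array was lower. The pooled difference was -1.23 (SE 0.22), the same to the second decimal on slide 2 and -1.24 on slide 1, with an adjusted p of 0.0378 in limma with the block and 0.0521 without. UCSF033_000951 was at 6.70 and 6.64, then 5.78 and 6.17, then 5.87 and 5.49. Its pooled difference was -0.84, with SE 0.17 and a limma adjusted p of 0.0461 with the block, and SE 0.18 and 0.0586 without.

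The other 6 probes that fell were of different abundance. UCSF033_000397 was among the most abundant on the array, ranked 11 and 13 of 2191 in naive cells. It was at 14.23 and 13.87 there, 13.72 and 13.37 at 6 h, and 13.04 and 13.19 at 12 h, so the groups did not overlap. The other 5 had naive means of 5.28 to 5.45 and 12 h means of 4.52 to 4.64, close to the median of the table (4.38 to 4.40 on these arrays), and none of the 5 was above background on either 12 h array. From scanner intensities they were at least 1.53-fold to 2.05-fold lower at 12 h than in naive cells. For such a bound the dim group is given, on each array, the larger of the probe's signal and the lowest signal that any probe had well above background. A tested probe had to be detected in at least 1 group, so these 5 entered through the groups in which they were higher. Their part of the count of 8 is therefore no support for a fall, and their exact differences rest on values at background.

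At 6 h alone, no probe passed against naive cells in the deposited table, either without the block (0% called, with 38 probes under an unadjusted p of 0.05) or with it (0%, and 48 such probes). UCSF033_000798 was 2.03 higher (SE 0.38, limma adjusted p = 0.251), at 2.005 on slide 1 and 2.049 on slide 2. UCSF033_000797 was 1.997 higher (adjusted p = 0.251) and UCSF033_000952 0.95 lower (SE 0.25, adjusted p = 0.251). The median SE of a difference was 0.30 log2, and a difference as large as the 2.03 of UCSF033_000798 did not pass at 6 h. The scanner intensities with the slide as a block gave 5 probes higher (0.755%) and 4 lower (0.604%) at 6 h, 1.36% in all. In the table with the block 7 probes passed at 6 h, 6 of them higher, when either 12 h array was left out.

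At 12 h alone UCSF033_000798 and UCSF033_000796 rose, and no probe fell, in the fit without the block (0.302%, 98 unadjusted). UCSF033_000798 was 2.75 log2 above naive (SE 0.38, limma adjusted p = 0.0445), a 6.71-fold rise, and by slide the difference was 1.91 and 3.59. UCSF033_000796 was 2.01 above (SE 0.31, adjusted p = 0.0496), and by slide 1.38 and 2.65. The 12 h arrays thus differed more than the 6 h arrays, and that of slide 1, the dim array, showed the smaller rise of both. Without the 12 h array of slide 2 the differences were 2.24 and 1.52 and neither passed (adjusted p = 0.153 for both). Both calls were also lost without either naive, 24 h or 65 h array, with only the 6 arrays in the fit, with unscaled scanner intensities, and with no filter on dim probes (adjusted p = 0.053 for both). Removing either 6 h array ended the call of UCSF033_000796 (0.0786). The count at 12 h was 9 without the 12 h array of slide 1 and 10 without either restimulated array.

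With the slide as a block 13 probes passed at 12 h (1.96%), 9 higher (1.36%) and 4 lower (0.604%). Among the 4 called lower, the largest falls were those of UCSF033_000952, by 1.51 log2 (SE 0.25, limma adjusted p = 0.0322), and of UCSF033_000397, by 0.93 (SE 0.17, adjusted p = 0.0379). On slide 1 and slide 2 UCSF033_000952 differed by -1.23 and -1.79, and UCSF033_000397 by -1.19 and -0.68. Differences of over 1 log2 in either direction were found at 17 tested probes at 6 h and 62 at 12 h. Of these, 12 and 51 were upward. The count at 12 h was 44 without either restimulated array, 0 without either naive, 24 h or 65 h array or without the 12 h array of slide 2, 3 without either 6 h array and 11 without the 12 h array of slide 1. The unadjusted counts beside those of 0 were 70 to 142.

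From 6 h to 12 h no probe passed in any fit. In the table limma called 0 of 662 (16 unadjusted), and with the slide as a block 0 of 662 (37 unadjusted). Of the 12 probes that rose in the pooled comparison with the block, 10 were higher at 12 h than at 6 h. Over all 12 the step had a median of 0.37 log2 (from -0.15 to 0.72). All 8 that fell were lower at 12 h than at 6 h, by 0.07 to 0.56, and 1 of the 20 had an unadjusted p under 0.05 for this step. Of these 8, 5 were not above background on either 12 h array and were tested through groups in which they were higher. Their steps are therefore no support for a further fall. Over all 662 probes 376 were higher and 286 lower at 12 h, with a median of 0.05. The 12 h arrays enter the difference that chose these probes, and for UCSF033_000798 their SD (0.722) was larger than that at 6 h (0.434), so the counts of steps are a description only.

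The step of the leading probes differed between slides. UCSF033_000798 went from 6 h to 12 h by -0.10 on slide 1 and 1.54 on slide 2, UCSF033_000797 by -0.11 and 1.05, and UCSF033_000952 by 0.01 and -1.13. All 3 were therefore flat on slide 1 and farther from naive on slide 2. Among the 12 risen probes the step was upward at 7 on slide 1 and 8 on slide 2, and among the 8 that fell it was downward at 5 and 8. The 8 that fell include 5 probes not above background on either 12 h array, so their steps are no support for a further fall.

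UCSF033_000522 and UCSF033_000523 had the smallest unadjusted p among upward steps in the fit with the block, and were named after their values were seen. UCSF033_000523 was at 6.57 and 6.16 in naive cells and 6.56 and 6.31 at 6 h, with no separation of the groups. At 12 h it was at 7.57 and 8.39, above all 4 other arrays. The step was 1.55 log2, with 1.01 on slide 1 and 2.08 on slide 2. It did not pass without the block (SE 0.48, limma adjusted p = 0.957) or with it (SE 0.46, adjusted p = 0.745). UCSF033_000522 was at 6.68 and 6.17, then 6.67 and 6.46, then 7.61 and 8.49, a step of 1.48 (SE 0.49, adjusted p = 0.957). In naive and 6 h cells these 2 probes ranked between 277 and 336, and at 12 h between 158 and 206.

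**Figure D2:**
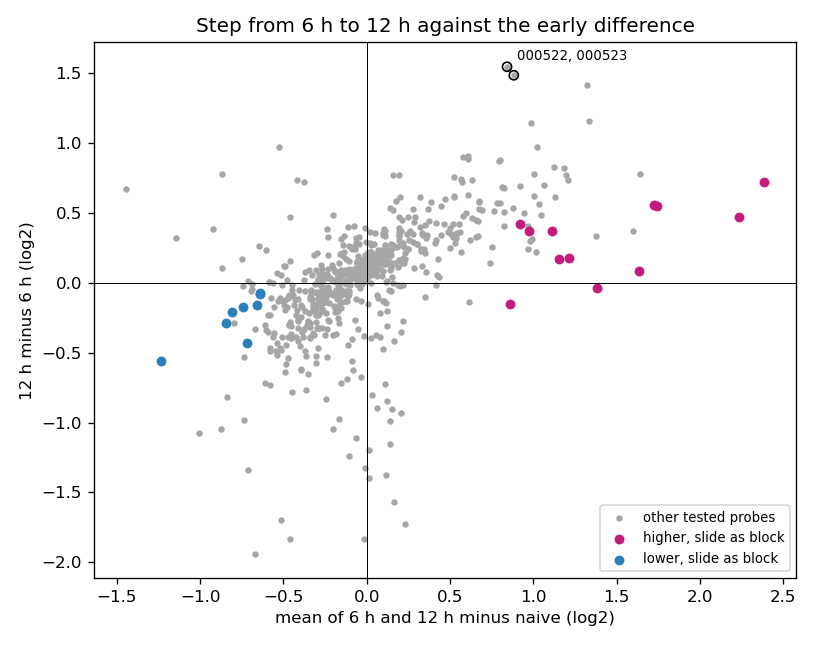
Step from 6 h to 12 h (vertical axis, log2) against the mean of 6 h and 12 h minus naive (horizontal axis, log2) for 662 tested probes, each a point; pink marks the 12 that rose and blue the 8 that fell with the slide as a block. Of the pink points 10 lie above 0, all blue points lie below 0, and the circled UCSF033_000522 and UCSF033_000523 have steps of 1.48 and 1.55. Among the blue points, 5 are probes not above background on either 12 h array.

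Differences were partly shared by the slides, which have no array in common. Across the 662 probes the pooled difference on slide 1 correlated with that on slide 2 at r = 0.529, and 479 probes (72.4%) lay on the same side of naive. The correlation was 0.443 for 6 h, 0.504 for 12 h and 0.325 for the step. Taken crosswise, 6 h on slide 1 and 12 h on slide 2 correlated at 0.416, and 12 h on slide 1 and 6 h on slide 2 at 0.397. Probes are not independent replicates, and the arrays of a slide share its background, so these values describe the arrays.

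The 50 probes highest on one slide were read on the other. Those chosen on slide 1, at a median of 1.30 there, lay at 0.51 on slide 2, with 0.46 at 6 h and 0.56 at 12 h, and 44 of the 50 were above the naive array. Those chosen on slide 2, at 1.06 there, lay at 0.51 on slide 1, with 0.33 and 0.81, and 49 of the 50 were above. The 50 lowest lay at -0.24 on slide 2 (38 of 50 below) and at -0.42 on slide 1 (46 of 50 below). All tested probes had medians between -0.11 and -0.03 on the same arrays. The sets were thus smaller in size on the slide that had not chosen them, and most of their probes lay on the same side there. How many of all tested probes lay on each side of naive was not counted, so these counts are a description only. At 20 probes the slides lay on opposite sides of naive and more than 1 log2 apart.

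**Figure D3:**
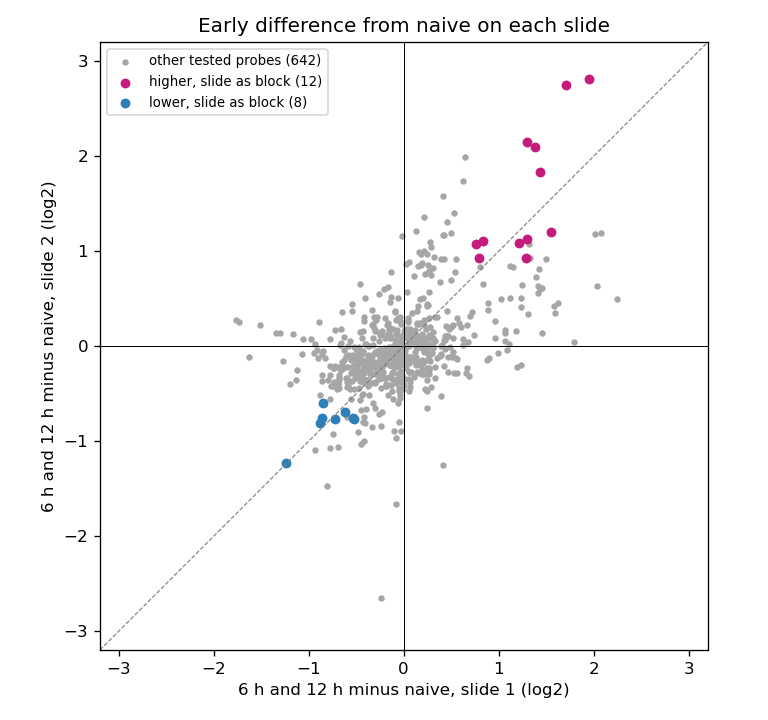
Mean of 6 h and 12 h minus naive (log2) on slide 1 (horizontal axis) and slide 2 (vertical axis) for 662 tested probes; pink marks the 12 higher and blue the 8 lower probes called with the slide as a block, and the dashed line marks equal values. The called probes lie in the upper right and lower left, and r over all points is 0.529.

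Scanner intensities gave similar differences. Scaled on each array's 75th percentile, with the slide as a block, they called 14 probes higher (2.11%) and 8 lower (1.21%) in the pooled comparison, 3.32% in all. Of the 20 table calls, 17 were among these 22 in the same direction, 6 of them falls. These 6 include the 5 probes not above background on either 12 h array, whose scanner values were held at a set floor there. Those 5 were tested through groups in which they were higher, so their calls are no support for a fall. The pooled difference of UCSF033_000798 was 2.61 (SE 0.37, limma adjusted p = 0.0141), that of UCSF033_000797 2.64 (SE 0.40, adjusted p = 0.0175) and that of UCSF033_000952 -1.42 (SE 0.27, adjusted p = 0.0459). UCSF033_000951 (-1.11, adjusted p = 0.0659) and UCSF033_000397 (-0.52, adjusted p = 0.0864) did not pass there. At 12 h 18 were higher (2.72%) and 10 lower (1.51%), 4.23% in all. The 10 include the same 5 probes held at the floor, whose part of this count is no support for a fall. The step from 6 h to 12 h had 0 calls (37 unadjusted). Over the called probes the median difference was 1.93 for the 12 and -1.16 for the 8, against 1.30 and -0.73 in the table. With 5 of the 8 at the floor at 12 h, -1.16 cannot be read as the size of a fall. The values of the table have the ranks of spot brightness, and why the sizes differ was not tested.

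Signal before scaling was lower on the activated arrays by a mean of 0.32 log2, which did not pass. Over the 571 probes above background on all 14 arrays, the median was 8.03 and 8.69 in naive cells, 7.94 and 8.70 at 6 h, and 6.91 and 8.63 at 12 h, on slide 1 and slide 2 in turn. The difference was -0.32 (8.04 ± 0.83, SD, n = 4, against 8.36 ± 0.47, n = 2; two-sided exact permutation test, p = 0.667), and the smallest p that the 15 splits allow is 0.0667. Within slides it was -0.60 on slide 1 and -0.03 on slide 2. The pooled difference depended on single arrays: without the 12 h array of slide 1 it was 0.06, and without the naive array of slide 2 it was 0.02. Leaving out 1 array makes the slides unequal between the groups, so these 2 values also hold a difference between slides. The permutation took no account of slide. At 6 h the difference within each slide was under 0.10 in size, and probe counts above background were 850 and 873 against 849 and 878 in naive cells.

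**Figure D4:**
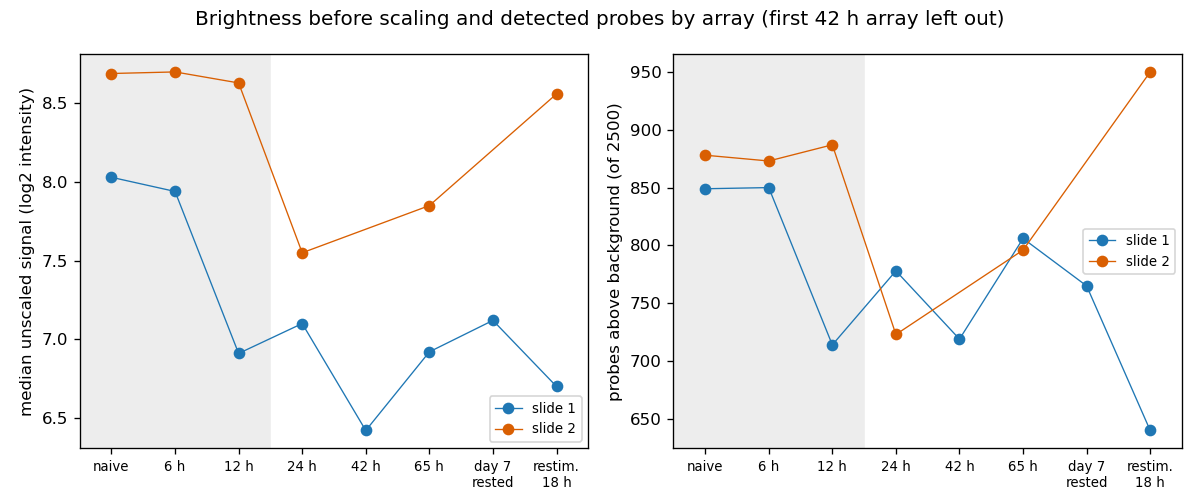
Median signal before scaling (left, log2 intensity, over 571 probes) and number of probes above background (right, of 2500) by group for slide 1 (blue) and slide 2 (orange), with the 6 arrays compared in the shaded part. Naive and 6 h arrays of a slide lie together, and the 12 h array of slide 1 is lowest among the 6, at 6.91 and 714.

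Detection was lost at more probes on the 12 h array of slide 1 than on any other of the 4 activated arrays. Of the tested probes 23 were above background on both naive arrays and on neither 12 h array, and 6 the reverse; at 6 h the counts were 8 and 5. On slide 1 alone 115 probes detected in naive cells were not detected at 12 h and 23 were gained, against 23 and 12 on slide 2. The part of the dim array in the 12 h differences was not tested beyond leaving it out: 3 probes then passed in the pooled comparison and 9 at 12 h without the block, and 16 and 11 with it.

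Later times are set beside the early ones as values, with no test, since all differences share the naive arrays that helped to choose the probes. The 12 risen probes lay above naive by a median of 1.26 at 6 h, 1.33 at 12 h, 1.88 at 24 h, 2.29 on the second 42 h array and 2.30 at 65 h, and by 1.43 on the single array rested in IL-2 to day 7 and 1.90 after 18 h of restimulation. The 8 that fell lay at -0.63, -0.87, -1.06, -1.08, -1.14, -1.02 and -1.15 in the same order, where 5 of the 8 were already at background at 12 h, so that their later falls cannot be sized. All tested probes had medians between -0.14 and 0 at these times.

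Named probes took different courses after 12 h, given here as values with no test. UCSF033_000798 went on to 12.09 at 24 h and 12.63 at 65 h, was at 10.95 on the rested array and at 12.35 after restimulation. UCSF033_000952 went on to 5.43 at 24 h and 4.79 at 65 h, and was at 4.87 on the rested array and 4.86 after restimulation. It was not above background on either 65 h array or on the restimulated array of slide 1, so these values give no order. UCSF033_000397 was 1.58 below naive at 65 h, 0.59 below on the rested array and 1.78 below after restimulation. UCSF033_000523 was highest at 24 h, at 8.68, was at 7.62 at 65 h with an SD of 1.06 between its arrays, and was 0.23 above its naive mean of 6.37 on the rested array.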

How the data were processed

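Per the labels, 50 ng of total RNA per sample went onto an Agilent microRNA array of custom design, in 1 colour. In the authors' deposited scanner files each spot has an intensity from which Feature Extraction had taken off background and a spatial trend. The version is 10.1.1.1 in the file headers and 10.6 in the submitters' processing notes. The authors' deposited table holds log2 values for 2191 probes. How they made it was not given in the sources used here. Its ranks matched the median spot brightness on the 14 arrays used (Spearman correlation at least 0.9994), and the median of each column was 4.38 to 4.41. Its scale and centring beyond this are unknown. The first 42 h column matched its scanner file at only 0.459 and was left out.

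A probe counted as detected on an array when more than 50% of its kept spots (control spots and outlier spots removed) were well above background. The 14 arrays were fitted in R 4.3.3 with lmFit and eBayes of limma 3.58.1, with group as the only term (residual degrees of freedom 6), and p-values were adjusted by Benjamini-Hochberg over 662 probes. The pooled contrast was the mean of the 6 h and 12 h group means minus the naive mean. Slides were read from the barcodes in the file headers. Slide and replicate order coincide in these 3 groups, so a part shared by a slide cannot be told apart from a part shared by a replicate set. Deviations from the group means correlated at 0.686 (naive and 6 h), 0.182 (naive and 12 h) and 0.519 (6 h and 12 h) across probes. The slide block thus pairs these arrays by slide and replicate order together, and is given beside the results. For the scanner check the processed signal was averaged over spots, divided by its 75th percentile over the 571 probes that all 14 arrays detected, given a floor of 0.583% of that percentile and taken to log2. The number of arrays limits the precision.

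Named probes were, per comparison, the largest 2 in each direction past the threshold and on the same side on both slides; the same rule applied to the block fit, and the 2 upward steps of smallest unadjusted p, were added after values were seen. Lists of microRNAs and cell type markers could not be used, since probes have no names here. The members, lists and tests were chosen with earlier results of these data known. The fit without the block was tested on simulated data with independent noise and no slide effect. The fits with the block and those of scanner values were not simulated. Alternatives changed the arrays, block, filter, scaling, background correction and variance model, and left out each array in turn. For unscaled signal, an exact permutation test over arrays was used.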

Additional observations from a re-analysis of the deposited data

Results flagged for a closer look

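UCSF033_000796 had 1 activated array far from the others: the 12 h array of slide 2, at 9.00, stood above the other 3, which lay between 7.89 and 8.03. Its gap to the nearest was 0.879 of the range of the 4 arrays, above the critical value of Dixon's test. Chance passes that value in about 1 in 20 groups of replicates, and these 4 arrays pool 2 at 6 h with 2 at 12 h.

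Outside the value table, detected probes were read from the scanner files alone, 151 with 1 spot per array and 37 with 5. Of the 151, 2 passed, both lower: UCSF033_000246 by -1.29 log2 (SE 0.11, limma adjusted p = 0.00141) and UCSF033_000265 by -1.20 (SE 0.11, adjusted p = 0.00143), with the slide as a block and 850 probes tested. Over all 850 probes of this fit, 10 were called lower and 14 higher. The calls of UCSF033_000246 and UCSF033_000265 rest on 1 spot per array. Levels of these probes on each array, and whether they lay at background, are not given here. Of the 37, 0 passed in limma (8 at an unadjusted p under 0.05). The median difference was -0.22 over the 1-spot probes, 0.17 over the 5-spot probes and -0.03 over the 662 probes of the table.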

How the results depend on the processing

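The pooled count of 1 was 0 with only the 6 arrays in the fit, 18 with all 15 arrays (12 higher, 6 lower), 20 with the slide as a replicate block, 8 with no filter (2 higher, 6 lower), 2 over probes detected on all 6 arrays and 12 with a mean-variance trend (5 higher, 7 lower). From scanner values it was 22 with the block, 17 without it, 17 with the percentile over all probes, 13 after normexp and quantile normalization and 0 without scaling (73 unadjusted). At 6 h the count of 0 became 9 from scanner values with the block, 4 without it, 7 with the percentile over all probes and 3 with the trend. At 12 h the count of 2 was 0 with the 6 arrays, 15 with all 15 arrays, 13 with the replicate block, 4 with no filter (0 higher, 4 lower) and 11 with the trend (5 higher, 6 lower), and from scanner values 28 with the block, 11 without it, 17, 14 and 1 (no scaling, lower). Added after the data were seen, the 6 arrays with the replicate block gave 0 for the pooled comparison and 0 at 12 h, and scanner values over 850 probes gave 24 pooled, 12 at 6 h and 23 at 12 h. Leaving out 1 array gave 0 to 19 for the pooled comparison, 0 at 6 h and 0 to 10 at 12 h without the block, and with it 0 to 27 (16 without the 12 h array of slide 1), 0 to 7 and 0 to 44. The step from 6 h to 12 h had 0 calls under each setting. The unscaled signal difference lay between -0.646 and 0.0644 when 1 array was left out, turning to 0.0161 without the naive array of slide 2. Of 451 recomputed differences of named probes, counted per comparison and alternative, 315 kept their side of the threshold, 61 lost the call, 75 gained it and 0 changed sign. Leaving out a later array cannot change a difference, and probes were named for lying on one side on both slides, so the signs say little. The causes were not tested. Dim probes near background limit the fold that can be read.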
